A study of Mus musculus with 28 samples.

Results

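Rod photoreceptors sorted from rd1 mice at postnatal day 10 (P10) were compared with rods sorted from wild-type (WT) mice of the same age by bulk RNA sequencing. The rd1 animals carried Pde6brd1/rd1 together with the TgNrlp-GFP transgene, and the WT animals carried TgNrlp-GFP alone, so that GFP under the Nrl promoter marked the rods of both groups. Retinas were dissociated with papain, GFP-positive cells were collected by flow cytometry, and stranded mRNA libraries were read in pairs. Of 28 libraries in the series, which covers P2, P4, P6, P8 and P10, 6 belonged to this comparison, 2 from rd1 and 4 from WT rods (WT replicates 2 to 5). The genes described are autosomal and protein-coding by annotation. Of 20833 such genes among the 45594 in the table, 14644 passed a filter on low counts and were tested, within a fit over 18608 genes of all kinds. How animals were shared out among the libraries is not in the labels, so the p-values measure the spread between these samples, which may be technical. A gate set by the Nrl promoter keeps cells by transgene fluorescence, and other cells can pass it.

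Pde6b codes for one catalytic subunit of the phosphodiesterase of rods, which lowers cGMP in light so that the cGMP-gated cation channels of the outer segment close. Without the enzyme cGMP accumulates, the channels admit sodium and calcium, and rods of the rd1 mouse die soon after they begin to build outer segments. Stress pathways studied in such rods include the integrated stress response, in which PERK and related kinases phosphorylate eIF2α and the factor ATF4 is translated, and the heat shock response, which induces cytosolic chaperones.

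The 2 rd1 libraries held 21363610 and 17128868 counts and the 4 WT libraries 11942678 to 14995501, so that depth and genotype cannot be told apart at P10. Gm42418, a gene that overlaps ribosomal RNA sequence, stood at 101.3 to 126.7 CPM (counts scaled to the library total, as deposited) in the rd1 libraries and at 1.355 to 7.341 CPM in the WT libraries. Levels below are CPM scaled by trimmed-mean (TMM) factors. Fos, an immediate early gene, stood at 521 and 829 CPM in the rd1 libraries and at 26.7, 54.2, 39.8 and 599 CPM in the WT libraries, WT replicate 5 being the high one. The total count of changed genes is therefore also given without WT replicate 5, and so are the counts of some lists. Markers of rods were abundant in all 6 libraries. Nrl, the factor that directs rod fate, stood at 2730 and 3350 CPM in rd1 rods and at 2130 to 3080 CPM in WT rods, and Nr2e3, which represses cone genes in rods, at 2520 and 2390 CPM in rd1 rods and at 2050 to 2890 CPM in WT rods.

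More genes were higher than lower in rd1 rods. With edgeR's quasi-likelihood test and Benjamini-Hochberg adjustment at 0.05 over all genes tested, 12.6% of genes of every kind and 13.0% of the autosomal protein-coding genes (1903 of 14644) passed. Of the autosomal protein-coding genes 1265 were higher in rd1 rods (8.64%) and 638 were lower (4.36%), while the median log2 fold change over all of them was −0.01. An absolute log2 fold change of at least 1 was reached by 566 of the higher genes and 364 of the lower genes. The CPM ranges of rd1 and WT libraries did not overlap for 1253 of the higher genes (99.1%) and 541 of the lower genes (84.8%), against 34.4% of all tested genes. Without WT replicate 5, 1402 genes were higher (9.59% of 14623 tested) and 1048 lower (7.17%), and 1118 of the 1265 higher genes and 561 of the 638 lower genes passed in that comparison too. With upper-quartile scaling and without WT replicate 5, the split was 1115 higher and 1256 lower. The count rested most on rd1 replicate 2: without it 335 genes passed, against 853 without rd1 replicate 1 and 1125 without WT replicate 3.

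**Figure D1:**
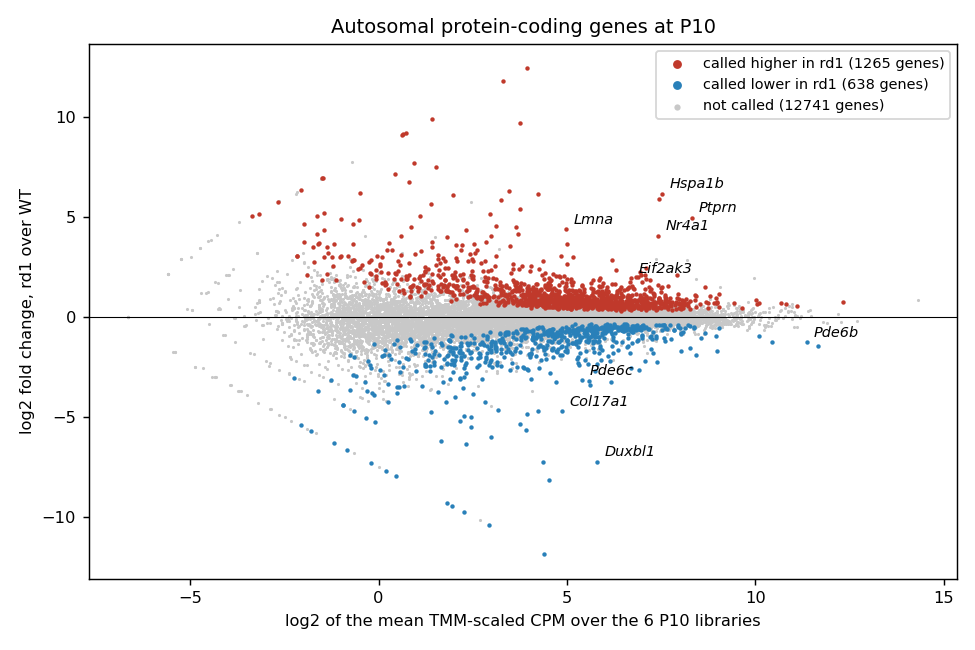
Log2 fold change of rd1 over WT rods at P10 (vertical axis) against the log2 of the mean TMM-scaled CPM over the 6 libraries (horizontal axis), 1 point per autosomal protein-coding gene tested, red where called higher in rd1, blue where called lower and grey where not called. The 1265 higher and 638 lower genes lie on either side of a median of −0.01, and the straight lines of points at low levels are genes with almost no counts in one genotype.

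The changed genes differed in base composition. Transcripts of the higher genes had a median GC content of 55.3% and those of the lower genes 45.8%, against 50.0% over all tested genes. In the GC-richest quartile of genes, 18.8% were higher in rd1 rods and 1.78% lower, with a median log2 fold change of 0.29. In the GC-poorest quartile, 2.46% were higher and 7.97% lower, with a median of −0.20. The same median in the GC-richest quartile was 0.28 at P2, 0.20 at P4, 0.17 at P6 and 0.06 at P8. With an offset per library for each of 20 bins of GC content, an alternative added after the data were seen, 814 genes were higher and 485 lower at P10. With these offsets and without WT replicate 5, 979 were higher and 983 lower.

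Pde6b itself fell. It stood at 1180 and 1550 CPM in rd1 rods and at 2590, 2730, 2940 and 4820 CPM in WT rods. Every rd1 library lay below every WT library, with a log2 fold change of −1.26 ± 0.32 (SE; edgeR's quasi-likelihood test, adjusted p = 0.013). WT replicate 5 gave the highest value, and without it the change was −1.01 (adjusted p = 0.0225). The fall lost its call when either rd1 library was left out (−1.07, adjusted p = 0.136 without rd1 replicate 1, and −1.46, adjusted p = 0.0811 without rd1 replicate 2). At P2, P4, P6 and P8 the log2 fold change of Pde6b was −2.37, −1.77, −1.67 and −1.99. In sorted bulk samples, fewer cells of a type and less RNA per cell cannot be told apart.

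The annotated transcripts of Pde6b were estimated separately. Their CPM are scaled to the library's transcript total without TMM factors, unlike the gene levels above. The coding transcript of 2799 bases stood at 628 and 808 CPM in rd1 rods and at 1990, 1990, 2110 and 3010 CPM in WT rods. A retained-intron transcript of 4088 bases stood at 475 and 557 CPM in rd1 rods and at 407 to 903 CPM in WT rods. Another retained-intron transcript, of 1225 bases, stood at 57.1 and 66.3 CPM in rd1 rods and at 65.1 to 145 CPM in WT rods. The groups were apart for the coding transcript and overlapped for each retained-intron transcript. No test was run on single transcripts.

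Of 26 tested members of the phototransduction cascade Pde6b alone passed the test, as lower, and the median log2 fold change was −0.21. Gnat1, the alpha subunit of rod transducin, stood at 1120 and 2180 CPM in rd1 rods and at 843, 1510, 2500 and 4360 CPM in WT rods (log2 fold change −0.48 ± 0.51, adjusted p = 0.588). Pde6a, which encodes the partner subunit of the phosphodiesterase, stood at 854 and 1220 CPM in rd1 rods and at 875 to 2290 CPM in WT rods. Both genes overlapped between the groups.

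Genes of the outer segment passed about as often as all genes tested, of which 13.0% passed in either direction. Of 27 genes of the outer segment and its discs 1 was higher and 2 were lower. Without WT replicate 5, 3 were higher and 1 lower, and with limma-voom 8 were higher and 2 lower. Drd4, the dopamine receptor of photoreceptors, stood at 171 and 302 CPM in rd1 rods and at 10.4, 30.3, 102 and 91.0 CPM in WT rods, apart from them by 2.02 ± 0.64 (adjusted p = 0.0423). Crb1, an apical polarity protein mutated in retinal dystrophies, fell to 288 and 338 CPM in rd1 rods, against 505 to 708 CPM in WT rods, a log2 fold change of −0.92 ± 0.21 (adjusted p = 0.00582), and its log2 fold change was −0.94, −0.51, −0.66 and −1.49 at P2, P4, P6 and P8. Drd4 lost its call without rd1 replicate 1 or 2 or WT replicate 2 or 3 (adjusted p = 0.0785, 0.404, 0.0705 and 0.116), and Crb1 lost its call without rd1 replicate 1 or 2 (adjusted p = 0.0846 and 0.0512).

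Rod transcription factors, cilium genes and synapse genes gave few calls. Among 19 rod transcription factors 1 rose: Rax, an eye-field homeobox gene that remains active in photoreceptors, stood at 247 and 299 CPM in rd1 rods and at 44.7 to 82.2 CPM in WT rods (2.10 ± 0.40, adjusted p = 0.00137). Nrl, Nr2e3 and Crx did not pass, with log2 fold changes of 0.30, 0.07 and 0.34. Among 46 genes of the cilium and transport to the outer segment 1 was higher and 1 lower. The lower one was Rpgrip1, a connecting-cilium scaffold, at 1690 and 1350 CPM in rd1 rods and 2610 to 6350 CPM in WT rods (−1.42 ± 0.41, adjusted p = 0.0273). That call was lost without rd1 replicate 1 or 2 (adjusted p = 0.101 and 0.286) and without WT replicate 5 (−1.11, adjusted p = 0.0509). Among 25 ribbon synapse genes 1 was higher and 1 lower. The higher one, Elfn1, an adhesion protein that rods use to contact bipolar cells, stood at 327 and 405 CPM in rd1 rods and at 92.1 to 156 CPM in WT rods (1.54 ± 0.28, adjusted p = 0.0012).

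**Figure D2:**
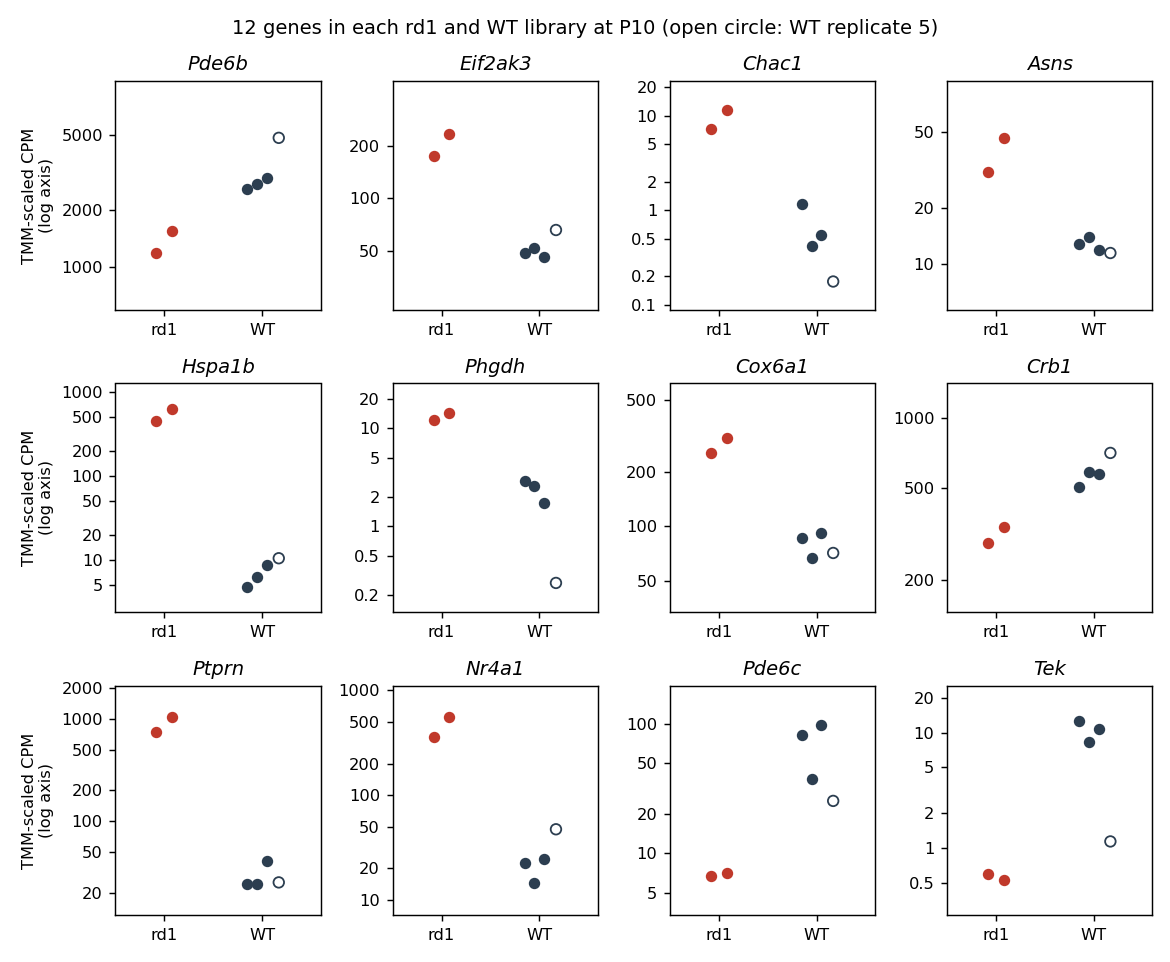
TMM-scaled CPM on a log axis of 12 genes in each P10 library, rd1 left of WT, 1 point per library, with WT replicate 5 as an open circle. Pde6b, Crb1, Pde6c and Tek sit lower, and the 8 other genes higher, in both rd1 libraries than in all 4 WT libraries.

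Part of the integrated stress response genes rose. Of 32 tested members of a list for the unfolded protein and integrated stress responses 12 were higher in rd1 rods and none lower, with a median log2 fold change of 0.47, against 8.64% higher and a median of −0.01 over all genes. Without WT replicate 5, 15 were higher and none lower. The list was called in 5 members without rd1 replicate 2 and in 11 or more when any other P10 library was left out. With the mean level of the immediate early genes as a covariate 3 were higher, and with the level of Gm42418 as a covariate 2. The summed level was 3990 and 4720 CPM in rd1 libraries and 2820 to 3910 CPM in WT libraries.

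Eif2ak3, which encodes PERK, the kinase of the endoplasmic reticulum that phosphorylates eIF2α, had the smallest p of the list. It stood at 174 and 235 CPM in rd1 rods and at 48.7, 52.2, 45.8 and 65.8 CPM in WT rods. The lowest rd1 library was well above the highest WT library, and the log2 fold change was 1.95 ± 0.15 (edgeR's quasi-likelihood test, adjusted p = 1.15e-08). At P2, P4, P6 and P8 the log2 fold change was 0.13, 0.05, 0.17 and 0.16.

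Downstream of ATF4, Chac1, which degrades glutathione, stood at 7.16 and 11.6 CPM in rd1 rods and at 1.17, 0.417, 0.552 and 0.176 CPM in WT rods (3.98 ± 0.57, adjusted p = 7.07e-05). Asns, asparagine synthetase, stood at 31.0 and 46.6 CPM in rd1 rods and at 12.9, 14.0, 11.9 and 11.5 CPM in WT rods (1.62 ± 0.25, adjusted p = 0.000188). Ddit3, the pro-apoptotic factor CHOP, stood at 71.8 and 95.2 CPM in rd1 rods and at 33.0, 27.3, 34.1 and 47.0 CPM in WT rods (1.24 ± 0.23, adjusted p = 0.00101). The groups were apart for each of these genes. The transcription factors Atf5, Cebpb and Atf3, the pseudokinase gene Trib3, the mTORC1 inhibitors Ddit4 and Sesn2, the secreted factor Gdf15 and Ppp1r15a, which encodes the GADD34 subunit that directs eIF2α dephosphorylation, made up the rest of the 12, with log2 fold changes of 1.66, 4.03, 2.79, 1.75, 1.11, 1.2, 3.34 and 0.94. Without rd1 replicate 2 the calls of Ddit3 (1.03, adjusted p = 0.0561), Atf3 (2.36, adjusted p = 0.0565), Trib3, Ddit4, Sesn2 and Gdf15 were lost, and Ppp1r15a kept its call only when WT replicate 5 was the library left out (adjusted p = 0.0701 to 0.312 without each of the others). Atf4 itself, regulated mainly at translation, stood at 703 and 933 CPM in rd1 rods and at 459, 449, 486 and 731 CPM in WT rods, and did not pass (0.62, adjusted p = 0.0723). Chaperones of the endoplasmic reticulum did not pass either: Hspa5, which encodes BiP, stood at 365 and 487 CPM in rd1 rods and at 210 to 404 CPM in WT rods (0.50 ± 0.21, adjusted p = 0.126), and Calr, calreticulin, differed by 0.21.

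ATF4 and CHOP are known to bind amino acid response elements, whose core was searched as TGATGNAA on both strands of the promoter windows (250 bases before to 50 after the start, RefSeq, GRCm38.p6). Of 10988 tested members with a promoter entry 312 held a match (2.84%). Among the stress response members 4 of 12 that rose held one (Asns, Atf3, Chac1 and Trib3), as did 3 of 18 that did not rise and had an entry (Herpud1, Nupr1 and Vldlr). Over all genes, 28 of 964 that rose (2.90%) and 16 of 457 that fell (3.50%) held one. The windows of 3 of these stress genes and of Pycr1, a proline synthesis gene described below, are shown so that the match can be compared between genes that rose. Each runs 5′ to 3′ along the gene's own strand, with the match in capitals; for Atf3 and Chac1 the match lies on the opposite strand and the letters shown are its reverse complement. The Asns window is chr6:7693201-7693256 (minus strand), that of Atf3 chr1:191183412-191183467 (minus strand), that of Chac1 chr2:119351025-119351080 (plus strand) and that of Pycr1 chr11:120643820-120643875 (minus strand).
Asns: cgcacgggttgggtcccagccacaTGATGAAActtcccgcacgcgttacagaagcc
Atf3: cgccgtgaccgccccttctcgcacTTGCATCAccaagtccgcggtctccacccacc
Chac1: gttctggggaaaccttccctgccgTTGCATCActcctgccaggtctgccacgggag
Pycr1: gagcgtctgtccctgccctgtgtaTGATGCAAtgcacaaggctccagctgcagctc
A match describes the letters and does not show binding in these cells.

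Inducible cytosolic chaperones gave the largest rises among genes with a mean of at least 5 on the log2 CPM scale. Of 43 tested members of the heat shock and proteasome list 8 were higher and none lower, and 5 and 4 were higher without rd1 replicate 1 and rd1 replicate 2, and 3 with either covariate. Hspa1b, an inducible HSP70 gene, stood at 448 and 633 CPM in rd1 rods and at 4.75, 6.34, 8.63 and 10.5 CPM in WT rods (6.16 ± 0.46, adjusted p = 6.2e-09). Hspa1a, its near-identical neighbour, rose by 5.90 ± 0.51, and reads cannot be divided with certainty between the pair. Hsph1, an HSP110 chaperone, stood at 254 and 225 CPM in rd1 rods and at 76.1, 62.3, 65.1 and 78.7 CPM in WT rods (1.77 ± 0.18, adjusted p = 4.38e-07). All of these groups were apart. The others were Hspb1, the small heat shock protein HSP27 (3.15 ± 0.55), Dnajb1, an HSP40 co-chaperone (0.65 ± 0.17), Hsp90ab1 (0.71 ± 0.20), Bag3 (1.88 ± 0.54) and Cryab (1.49 ± 0.47). Dnajb1 lost its call without rd1 replicate 2 (0.48, adjusted p = 0.302), and Bag3, Hsp90ab1 and Cryab without either rd1 library. No proteasome subunit in the list passed, and Hsp90aa1, the inducible HSP90 gene, stood at 1880 and 2270 CPM in rd1 rods and at 1340 to 2570 CPM in WT rods.

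Some genes of serine, one-carbon and proline synthesis rose. Of 21 tested members of the pentose phosphate and serine synthesis list 7 were higher and none lower, with a median of 0.29, and 5 to 8 members passed as higher when any 1 P10 library was left out, and 1 with either covariate. Phgdh, the first enzyme of serine synthesis, stood at 12.1 and 14.3 CPM in rd1 rods and at 2.88, 2.59, 1.73 and 0.264 CPM in WT rods (2.81 ± 0.51, adjusted p = 0.00101). Mthfd2, a mitochondrial folate enzyme, stood at 14.6 and 20.5 CPM in rd1 rods and at 3.27, 4.59, 7.52 and 5.54 CPM in WT rods (1.74 ± 0.30, adjusted p = 0.000604). Psat1, Shmt2 and Pycr1, further enzymes of serine, glycine and proline synthesis, rose by 1.4 ± 0.25, 0.71 ± 0.17 and 1.32 ± 0.23. Asns belongs to this list too, and Pgls, a pentose phosphate enzyme, rose by 1.33 ± 0.23. Psat1 and Shmt2 lost their calls without rd1 replicate 2 (adjusted p = 0.0634 and 0.147).

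Glycolysis genes gave calls in both directions. Of 33 tested, 5 were higher and 3 lower, with a median of 0.13, against 8.64% higher and 4.36% lower over all genes. None passed with the immediate early or the Gm42418 covariate, where the medians were −0.06 and −0.14. Pkm, pyruvate kinase, stood at 2450 and 3040 CPM in rd1 rods and at 1830, 1590, 2050 and 2100 CPM in WT rods (0.54 ± 0.16, adjusted p = 0.0294), and Slc2a1, the glucose transporter GLUT1, stood at 213 and 293 CPM in rd1 rods and at 149 to 177 CPM in WT rods (0.62 ± 0.18, adjusted p = 0.0243). Pfkfb2, which makes the activator of phosphofructokinase, fell to 191 and 220 CPM in rd1 rods, against 379, 604, 610 and 1040 CPM in WT rods (−1.68 ± 0.36, adjusted p = 0.00418). Slc16a7, a monocarboxylate transporter, fell by 1.86 on the log2 scale. None of the list passed without rd1 replicate 2 (Pkm 0.38, adjusted p = 0.402), without rd1 replicate 1 Pfkfb2 and Slc16a7 lost their calls (adjusted p = 0.0608 and 0.0833), and without WT replicate 3 Pkm and Slc2a1 did (adjusted p = 0.088 and 0.0676). Without WT replicate 3, 0 members were higher and 2 lower, and with the GC offsets 0 were higher and 1 lower.

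Part of the nuclear genes of oxidative phosphorylation were higher, most by small amounts. Of 73 nuclear-encoded oxidative phosphorylation subunits 21 were higher and 1 lower, with a median of 0.37, and 63 had a positive fold change. Without WT replicate 5, 20 were higher and 1 lower. The higher ones numbered 13 without rd1 replicate 1, 1 without rd1 replicate 2 and 10 without WT replicate 3, and 16 with the GC offsets. They numbered 9 in the 6 P10 libraries fitted alone. With the immediate early covariate none was higher and the median was 0.05, and with the Gm42418 covariate none was higher and the median was 0.03. Cox6a1, a subunit of complex IV, stood at 255 and 309 CPM in rd1 rods and at 86.5, 66.7, 92.2 and 71.2 CPM in WT rods (1.83 ± 0.33, adjusted p = 0.000925). Atp5d, of the ATP synthase, stood at 125 and 152 CPM in rd1 rods and at 60.8, 49.7, 70.5 and 58.6 CPM in WT rods (1.21 ± 0.23, adjusted p = 0.00151). Atp5d lost its call without rd1 replicate 2 (1.07, adjusted p = 0.0587). The other higher subunits ranged from 0.45 (Atp5a1) to 1.24 (Cox8a).

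Of the other mitochondrial lists, that of the citric acid cycle stayed near the shares over all genes, 8.64% higher and 4.36% lower. With the immediate early or the Gm42418 covariate none of its genes was higher, with medians of −0.03 and 0.02. Of 30 citric acid cycle genes 3 were higher, among them Sdhc (0.65 ± 0.16) and Mdh2 (0.58 ± 0.16), and 1 was lower, Idh1, which encodes the cytosolic isocitrate dehydrogenase (−0.37 ± 0.11). None of the 30 passed without rd1 replicate 2. Of 41 genes of mitochondrial quality control 7 were higher and 1 lower, and 1 and 4 were higher without rd1 replicate 2 and WT replicate 3. Without WT replicate 5, 10 were higher and 1 lower, and with either covariate none was higher and 1 lower. Chchd10, an intermembrane space protein, stood at 94.1 and 103 CPM in rd1 rods and at 22.9, 20.3, 35.1 and 31.6 CPM in WT rods (1.85 ± 0.37, adjusted p = 0.00252). Nnt, which makes mitochondrial NADPH, fell to 7.81 and 8.09 CPM in rd1 rods, against 11.7 to 15.8 CPM in WT rods (−0.80 ± 0.20, adjusted p = 0.0115), a call lost without rd1 replicate 1 or 2 (adjusted p = 0.101 and 0.135).

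Of 32 genes of oxidative stress and glutathione 10 were higher and none lower, with a median of 0.43. Srxn1, sulfiredoxin, stood at 53.5 and 66.9 CPM in rd1 rods and at 23.6, 27, 34.6 and 32.7 CPM in WT rods (1.03 ± 0.22, adjusted p = 0.00333). Slc7a11, the cystine importer, stood at 18.6 and 15.3 CPM in rd1 rods and at 8.03, 10.7, 6.97 and 8.61 CPM in WT rods (0.98 ± 0.22, adjusted p = 0.00535). Sod1, superoxide dismutase, and Keap1, the inhibitor of the antioxidant factor NRF2, rose by 0.71 ± 0.18 and 0.55 ± 0.15. Without WT replicate 5, 7 were higher, 3 without rd1 replicate 1, 1 without rd1 replicate 2, 3 without WT replicate 3 and 4 without WT replicate 4. In the 6 P10 libraries alone 2 were higher, with the GC offsets 6, and with the immediate early or the Gm42418 covariate none (medians 0.15 and 0.08). Srxn1 lost its call without rd1 replicate 2 (0.87, adjusted p = 0.112) and Slc7a11 without rd1 replicate 1 (0.84, adjusted p = 0.0833).

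A few cell death genes rose. Of 38 tested 6 were higher and none lower, with a median of 0.08, and 3 were higher without rd1 replicate 1 or without WT replicate 3 and 4 without WT replicate 2. Over all genes 8.64% were higher. With the immediate early or the Gm42418 covariate none of the 38 was higher, and with the GC offsets 2 were. Bbc3, the p53 target PUMA, stood at 9.01 and 14.6 CPM in rd1 rods and at 3.43, 1.84, 3.73 and 0.615 CPM in WT rods (2.28 ± 0.55, adjusted p = 0.00907). Cdkn1a, the p53 target p21, stood at 14.7 and 12.9 CPM in rd1 rods and at 5.38, 4.59, 4.14 and 1.67 CPM in WT rods (1.80 ± 0.45, adjusted p = 0.0115). Bax, a mitochondrial death effector, rose by 0.55 ± 0.15, and Trp53, which encodes p53, by 0.55 ± 0.17 (51.3 and 52.5 CPM in rd1 rods, 32.5 to 39.0 CPM in WT rods), a call that leaving out any 1 P10 library except WT replicate 4 ended (adjusted p = 0.0629 to 0.265). Bik and Endog, a mitochondrial nuclease, were the others. None of the 6 passed without rd1 replicate 2 (Bbc3 1.89, adjusted p = 0.169), Cdkn1a did not pass without rd1 replicate 1 either (1.70, adjusted p = 0.0768), and with the GC offsets the fold change of Bax was −0.11.

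Calcium and calpain genes gave calls in both directions. Of 42 tested 5 were higher and 3 lower, against 8.64% higher and 4.36% lower over all genes. With the immediate early or the Gm42418 covariate 1 was higher and none lower. There were 4 higher and 7 lower without WT replicate 5, 3 higher and 2 lower without rd1 replicate 1, and 1 higher and none lower without rd1 replicate 2. Camk2g, a subunit of calcium/calmodulin-dependent kinase II, stood at 200 and 288 CPM in rd1 rods and at 88.8, 93.0, 94.9 and 120 CPM in WT rods (1.3 ± 0.16, adjusted p = 1.37e-05). The calpain gene Capn11 stood at 11.3 and 30.8 CPM in rd1 rods and at 0.623, 0.918, 3.04 and 0.352 CPM in WT rods (4.04 ± 0.91, adjusted p = 0.00594), and the calpain genes Capn10 and Capn3 and the small regulatory subunit Capns1 were the other higher ones. Atp2b1, a plasma membrane calcium pump, fell to 260 and 252 CPM in rd1 rods, against 371, 395, 377 and 341 CPM in WT rods (−0.54 ± 0.11, adjusted p = 0.00397). Cast, which encodes the calpain inhibitor calpastatin, fell to 4.63 and 3.75 CPM in rd1 rods, against 7.52 to 10.2 CPM in WT rods (−1.09 ± 0.29, adjusted p = 0.0187), and Ryr2, a calcium release channel, fell by 0.81. Without rd1 replicate 2 Capn11 (3.16, adjusted p = 0.141), Atp2b1 (−0.50, adjusted p = 0.0863), Ryr2 and Cast lost their calls, and without rd1 replicate 1 Cast did (−1.25, adjusted p = 0.0711).

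Injury and chromatin lists gave few calls, beside a share of 8.64% higher over all genes. With the immediate early or the Gm42418 covariate no gene of either list passed. Of 30 photoreceptor injury and survival genes 4 were higher, Gadd45b, Gadd45g, Stat3 and Nrtn, and 2 without rd1 replicate 1, rd1 replicate 2 or WT replicate 3. Without WT replicate 5, 4 were higher and 3 lower. Nrtn, the neurotrophic factor neurturin, stood at 40.4 and 36.0 CPM in rd1 rods and at 0.234, 0.417, 2.42 and 0.352 CPM in WT rods (5.41 ± 1.08, adjusted p = 0.00227). Of 23 chromatin enzymes linked to rod death 3 were higher, among them Hdac5, a class II histone deacetylase, at 269 and 316 CPM in rd1 rods and 119, 129, 162 and 187 CPM in WT rods (0.97 ± 0.21, adjusted p = 0.00395). The others were Hdac4 and Sirt6. Without rd1 replicate 1, 1 of the 23 passed, and without rd1 replicate 2 none did (Hdac5 0.86, adjusted p = 0.0955).

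Lipid and autophagy lists stayed near the background. Of 41 autophagy and lysosome genes 4 were higher, led by Ctsz, a lysosomal cathepsin (0.84 ± 0.17, adjusted p = 0.00257), and Gabarapl1, an ATG8 family member of the autophagosome, at 125 and 183 CPM in rd1 rods and 78.2 to 101 CPM in WT rods (0.79 ± 0.18, adjusted p = 0.00587). None of the 41 passed without rd1 replicate 2. Of 42 fatty acid and phospholipid genes 5 were higher and 3 lower, with 2 in each direction without rd1 replicate 1, 1 without rd1 replicate 2 and 3 without WT replicate 3. Elovl1, a fatty acid elongase, fell to 4.83 and 4.47 CPM in rd1 rods, against 11.1 to 18.9 CPM in WT rods (−1.57 ± 0.24, adjusted p = 0.000132). Acadm, which begins medium-chain beta-oxidation, rose by 0.83 ± 0.17. Of 24 cholesterol synthesis genes 2 were higher, one of them Srebf2, the transcription factor of the pathway, at 113 and 105 CPM in rd1 rods and 35.5 to 63.9 CPM in WT rods (1.03 ± 0.20, adjusted p = 0.00223). Ctsz, Gabarapl1 and Acadm lost their calls without rd1 replicate 2 (adjusted p = 0.208, 0.288 and 0.151).

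**Figure D3:**
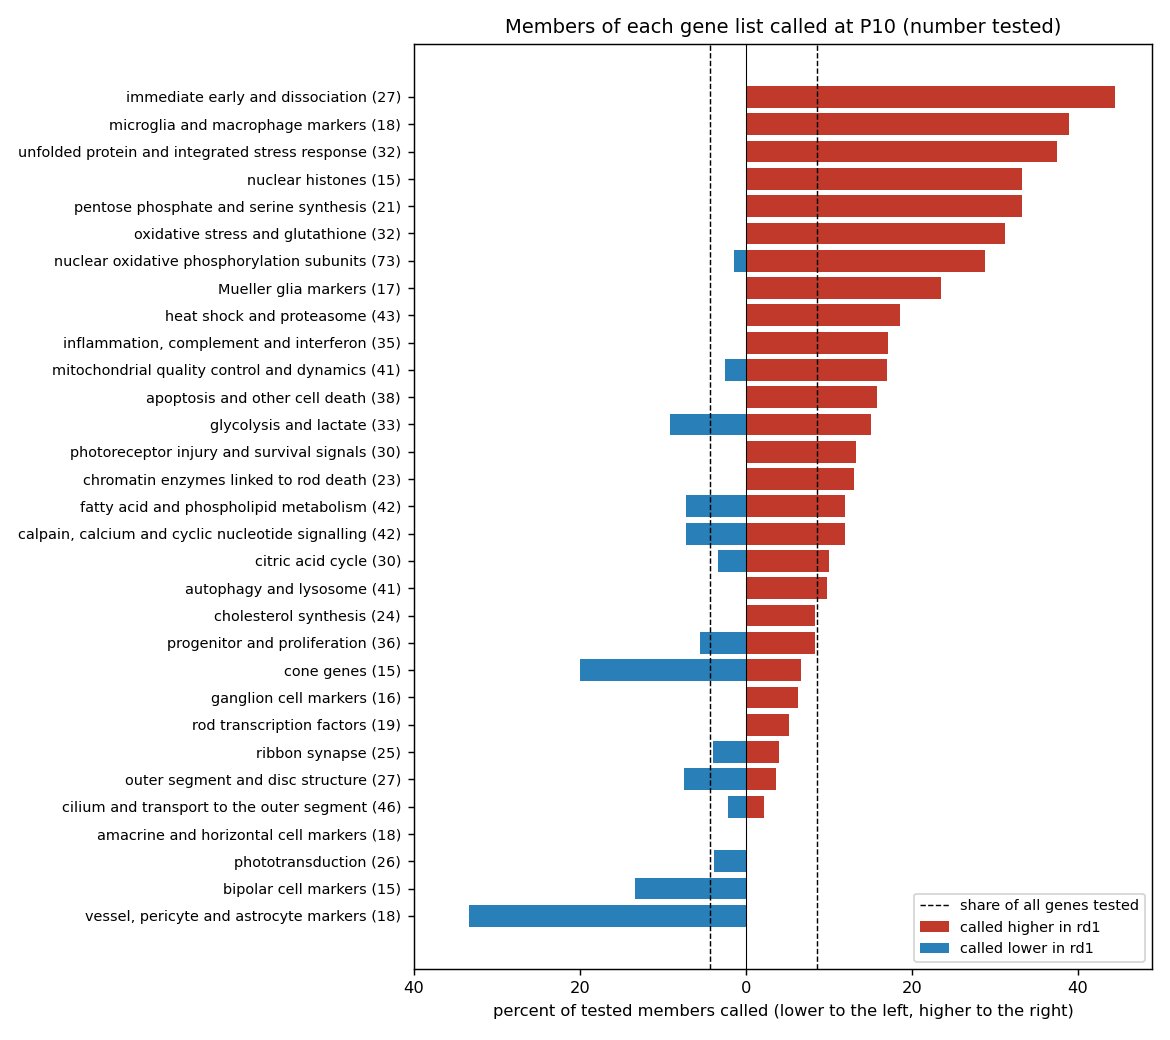
Percent of the tested members of each gene list called higher (red, to the right) or lower (blue, to the left) in rd1 over WT rods at P10, for lists with at least 15 tested members, whose number is in brackets. Dashed lines mark the shares over all autosomal protein-coding genes, 8.64% higher and 4.36% lower; 21 of 73 oxidative phosphorylation genes and 12 of 32 stress response genes were higher, and 6 of 18 vessel markers were lower.

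Part of the immediate early genes rose. Of 27 tested 12 were higher and none lower, with a median of 1.92. The higher ones numbered 15 without WT replicate 5 and 6 without rd1 replicate 2. Their summed level was 3190 and 4130 CPM in rd1 libraries and 546, 613, 648 and 2370 CPM in WT libraries. Nr4a1, an orphan nuclear receptor, stood at 363 and 552 CPM in rd1 rods and at 22.3, 14.4, 24.8 and 47.3 CPM in WT rods (4.07 ± 0.33, adjusted p = 1.79e-08). Npas4, an activity-induced factor of neurons, stood at 17.2 and 26.8 CPM in rd1 rods and at 0.417 to 0.828 CPM in WT rods (5.16 ± 0.57, adjusted p = 1.78e-06). Arc and the AP-1 genes Jund, Junb and Jun rose by 3.74, 2.84, 3.63 and 2.44, and Jun lost its call without rd1 replicate 2 (2.19, adjusted p = 0.122). Fos did not pass (1.91 ± 1.17, adjusted p = 0.304). WT replicate 5 was singled out for its Fos level, so the count of this list without it is no independent result. The list holds genes known to respond to tissue dissociation, and dissociation times are not in the labels. With the mean level of this list as a covariate, 201 genes passed at P10, and with Gm42418 as a covariate 147 did, so the part of either in the calls cannot be told apart from genotype.

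Outside the lists, the largest rises among well-expressed genes included Ptprn, a protein of dense-core secretory granules, at 747 and 1040 CPM in rd1 rods and 24.5, 24.6, 40.7 and 25.4 CPM in WT rods (4.96 ± 0.32, adjusted p = 6.28e-10). Lmna, which encodes the nuclear lamins A and C that rods of the mouse normally keep low, stood at 59.4 and 112 CPM in rd1 rods and at 6.16, 4.59, 3.45 and 2.29 CPM in WT rods (4.38 ± 0.38, adjusted p = 6.08e-08). Sox30, a transcription factor gene, rose by 4.53 ± 0.32 and stood higher at every age, by 3.06, 3.34, 3.72 and 2.78 at P2, P4, P6 and P8. Csrnp1, a nuclear protein induced by AXIN1, rose by 4.50 ± 0.46.

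Several genes with large falls were low in rd1 rods at all 5 ages. Col17a1, a collagen of hemidesmosomes, stood at 2.09 and 1.18 CPM in rd1 rods and at 40.7, 39.3, 55.1 and 37.7 CPM in WT rods (−4.69 ± 0.42, adjusted p = 9.25e-08). Ahcy, adenosylhomocysteinase, stood at 4.63 and 3.09 CPM in rd1 rods and at 39.8, 29.0, 37.9 and 41.9 CPM in WT rods (−3.26 ± 0.31, adjusted p = 2.65e-07), with −3.43, −3.08, −3.15 and −3.66 at P2, P4, P6 and P8. Tnfrsf8, Eps8l1 and Slc15a2 were likewise lower at each age. Fam205c had no count in either rd1 library and averaged 5.77 CPM in WT rods, which is at least 29.3-fold lower when each rd1 library is set to 3 counts. Within 5 Mb on each side of Pde6b, 20 of 89 tested genes passed (22.5%), 11 as higher and 9 as lower, against 15.1% on chromosome 5 and 13.0% over all genes. The share was 21.4% within 10 Mb and 17.1% within 20 Mb.

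Cone genes fell in part. Of 15 tested 1 was higher and 3 were lower, with a median of −0.73, and 8 were lower without WT replicate 5. Pde6c, the cone phosphodiesterase, stood at 6.72 and 7.04 CPM in rd1 rods and at 81.4, 37.6, 97.6 and 25.4 CPM in WT rods (−3.14 ± 0.44, adjusted p = 6.17e-05). Gngt2, the cone transducin gamma subunit, moved the other way, at 317 and 194 CPM in rd1 rods and 102, 50.7, 59.6 and 28.8 CPM in WT rods (2.08 ± 0.32, adjusted p = 0.000187). Opn1sw, the short-wavelength cone opsin, stood at 55.5 and 79.9 CPM in rd1 rods and at 164, 154, 207 and 50.6 CPM in WT rods, with WT replicate 5 below both rd1 libraries, and did not pass (−1.09 ± 0.39, adjusted p = 0.0725). The summed level of the 15 genes was 2890 and 2930 CPM in rd1 libraries and 2850 to 4780 CPM in WT libraries. WT replicate 5 had the highest sum, although it had the lowest WT level of Pde6c, Gngt2 and Opn1sw. The list includes Grk1, which is also in the phototransduction list, so its sum does not measure cones alone.

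Markers of other cells differed between libraries as well as between genotypes. Over all genes 8.64% were higher and 4.36% lower. With the immediate early or the Gm42418 covariate no microglia and macrophage marker passed, and their median of 1.69 became 0.58 or 0.18. For Müller glia markers 1 was higher with the former (median 0.29) and none with the latter (median −0.06), against a median of 0.63 in the main fit. Microglia and macrophage markers were called higher in 7 of 18 tested rows (Itgam stands under 2 gene identifiers), and in 4 without rd1 replicate 1, WT replicate 3, 4 or 5, with a summed level of 121 and 214 CPM in rd1 libraries and 40 to 94.6 CPM in WT libraries. C1qc, a complement gene of microglia, stood at 9.70 and 20.6 CPM in rd1 rods and at 3.74, 2.42, 2.83 and 0.352 CPM in WT rods (2.68 ± 0.75, adjusted p = 0.0229), and without rd1 replicate 2 no marker of the list passed (C1qc 2.05, adjusted p = 0.305). C1qc did not pass without WT replicate 3 either (adjusted p = 0.0555). Of 35 genes of inflammation, complement and interferon 6 were higher, C1qb and C1qc among them, with a median of −0.01 over the list, and 1 was higher without rd1 replicate 2 or WT replicate 3. Müller glia markers were higher in 4 of 17, namely Clu, Car2, Apoe and Sox9, with a summed level of 1950 and 2150 CPM in rd1 libraries and 626 to 1700 CPM in WT libraries. They were higher in 2 without rd1 replicate 1 or WT replicate 3, in 1 without rd1 replicate 2 and in 6 without WT replicate 2.

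Other marker lists were lower or gave few calls. With the immediate early or the Gm42418 covariate no vessel, pericyte and astrocyte marker passed (medians −1.21 and −2.01). No bipolar cell marker passed with them either (medians −0.93 and −1.22). Vessel, pericyte and astrocyte markers were lower in 6 of 18 (10 without WT replicate 5, 2 without WT replicate 2 and 3 without WT replicate 3 or 4), with a median of −1.59 and a summed level of 256 and 224 CPM in rd1 libraries and 566, 366, 454 and 85.8 CPM in WT libraries. Tek, an endothelial receptor, stood at 0.597 and 0.526 CPM in rd1 rods and at 12.7, 8.35, 10.8 and 1.14 CPM in WT rods (−3.86 ± 1.00, adjusted p = 0.0147), and no marker of the list passed when either rd1 library was left out (Tek, adjusted p = 0.108 and 0.187). Bipolar cell markers were lower in 2 of 15, Scgn and Grik1, and in 10 of 15 without WT replicate 5, which had the lowest sum (1670 and 1220 CPM in rd1 libraries, 3270, 2410, 2160 and 1140 CPM in WT libraries). Scgn lost its call without rd1 replicate 2 (adjusted p = 0.199), and Grik1 without either rd1 library. Amacrine and horizontal cell markers passed in 0 of 18 and pigment epithelium markers in 0 of 12. Without WT replicate 5, 1 of the former and 3 of the latter were lower. Ganglion cell markers were higher in 1 of 16 (Nefh, a neurofilament gene), and lens crystallins in 2 of 4, but in none without rd1 replicate 1, rd1 replicate 2 or WT replicate 3, and in 1 without WT replicate 4 or 5. No marker in these lists was at 0 in all 6 libraries among those tested. The part of these cells in the other results was not tested.

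**Figure D4:**
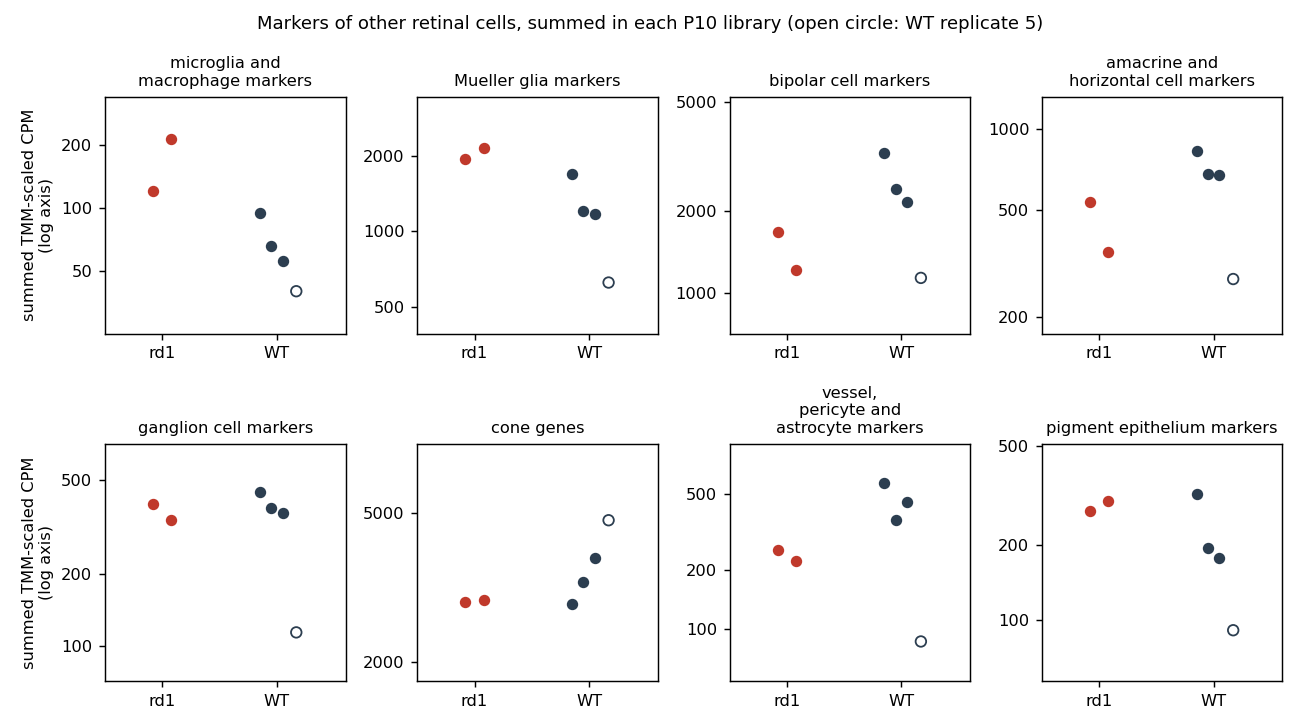
Summed TMM-scaled CPM of each marker list in each P10 library on a log axis, rd1 left of WT, 1 point per library, with WT replicate 5 as an open circle. Microglia sums were 121 and 214 CPM in rd1 libraries and 40 to 94.6 CPM in WT libraries, and WT replicate 5 had the lowest sum of every list shown except cone genes, where it had the highest. The cone list includes Grk1, which is also in the phototransduction list, while Pde6c, Gngt2 and Opn1sw were lowest in WT replicate 5 among WT libraries.

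Whether a gene's genotype effect at P10 differed from its mean effect at P2, P4, P6 and P8 was tested as a contrast within the same fit. It passed for 53 autosomal protein-coding genes as higher at P10 (0.362%) and for 20 as lower (0.137%). Without WT replicate 5 it passed for 78 as higher and 122 as lower, so the larger share was then lower. Fewer genes passed when either rd1 library was left out. The effect of Ptprn at P10 exceeded the mean of the other ages by 4.18 ± 0.36 (adjusted p = 6.43e-07), with log2 fold changes of 0.33, 0.17, 0.15, 2.44 and 4.96 from P2 to P10. Twsg1, a modulator of BMP signalling, exceeded it by 1.98 ± 0.17, with −0.09, −0.04, 0.02, 0.20 and 2.00 from P2 to P10, and stood at 176 and 282 CPM in rd1 rods at P10 and at 55.3 to 59.2 CPM in WT rods. Eif2ak3 exceeded it by 1.82 ± 0.17 (adjusted p = 2.47e-06), Hsph1 by 1.83 ± 0.20 and Lmna by 3.81 ± 0.42. Ctnnal1, the catenin-like protein alpha-catulin, exceeded it by 2.36 ± 0.22, with log2 fold changes of −0.03, −0.53, 0.04, 0.46 and 2.35 from P2 to P10.

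On the lower side, Pttg1, securin, the inhibitor of separase, stood at 1.14 and 1.05 CPM in rd1 rods and at 11.1, 9.68, 8.35 and 8.70 CPM in WT rods, with 1.46, 1.02, −0.27, −2.02 and −3.09 from P2 to P10 (contrast −3.14 ± 0.34, adjusted p = 1.9e-05). Pde6c gave −2.76 ± 0.47. Fam19a3 gave −2.71 ± 0.44, and Per3, a circadian clock gene, −0.97 ± 0.19. Without rd1 replicate 2 Pde6c, Fam19a3 and Per3 no longer passed (adjusted p = 0.127, 0.133 and 0.356), and without rd1 replicate 1 Pde6c and Per3 did not (adjusted p = 0.0731 and 0.0642). Mmp2 and Fzd4, a WNT receptor, passed this contrast while not passing at P10: Mmp2, a matrix metalloprotease, stood at 23.5 and 20.5 CPM in rd1 rods and at 22.4 to 24.2 CPM in WT rods, and its fold changes were 3.00, 2.18, 1.00, 0.31 and −0.09 from P2 to P10. Fzd4 lost the contrast call without either rd1 library (adjusted p = 0.126 and 0.215).

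**Figure D5:**
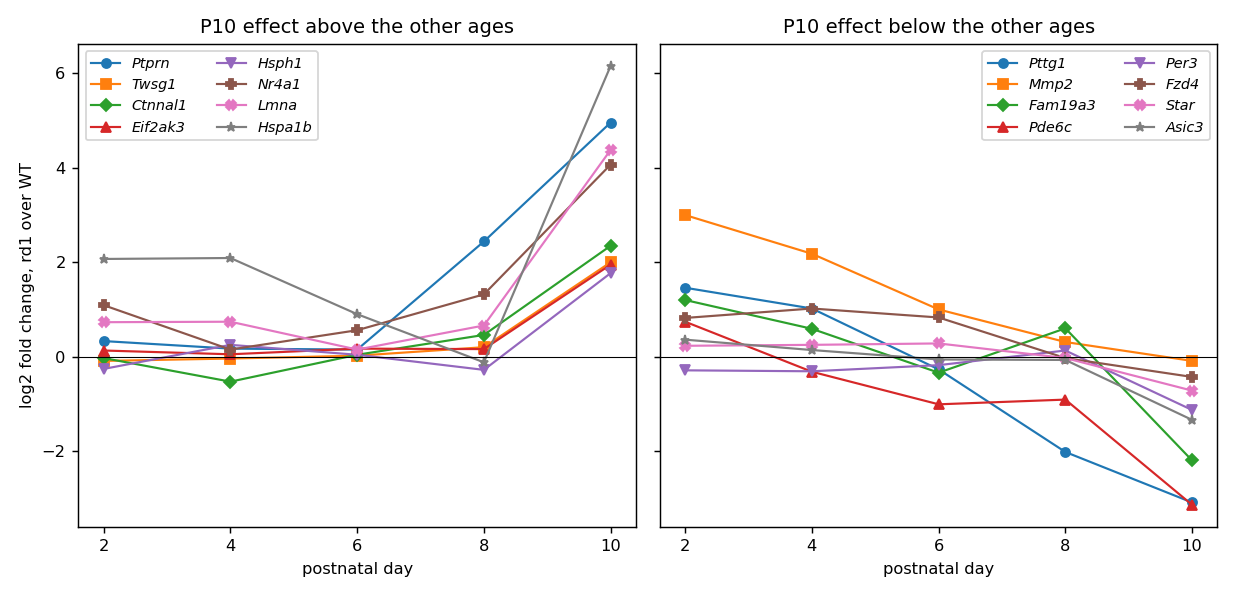
Log2 fold change of rd1 over WT rods (vertical axis) by postnatal day for the 8 genes with the smallest p in each direction of the P10 contrast, 1 line per gene, without error bars. Eif2ak3 and Twsg1 lie near 0 up to P8 and at 1.95 and 2.00 at P10, Ptprn reaches 2.44 at P8 and 4.96 at P10, and Mmp2 declines from 3.00 at P2 to −0.09 at P10.

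The genes changed at P10 were partly those changed at other ages, which were tested against their own WT libraries. At P2 and P4, 202 and 219 genes were higher (1.38% and 1.5%) and 141 and 134 lower (0.963% and 0.915%). Of the 1265 genes higher at P10, 121 were also higher at P2 and 153 at P4, 59.9% and 69.9% of the genes higher at those ages. The median log2 fold change of those 1265 genes was 0.5, 0.47, 0.44 and 0.04 at P2, P4, P6 and P8. At P6, where rd1 libraries again were the deeper (15980188 to 20820977 counts, against 12265260 to 13636691 in WT), 196 genes were higher (1.34%) and 133 lower (0.908%). Of the 1265 genes higher at P10, 145 were also higher at P6, 11.5% of the P10 genes and 74.0% of the P6 genes. At P8, where rd1 libraries held 11103460 to 13839911 counts and WT libraries 12712570 to 13187377, 142 genes were higher (0.970%) and 385 lower (2.63%). Of the genes higher at P10, 76 were higher at P8, 6.01% of the P10 genes and 53.5% of the P8 genes. Of the 638 genes lower at P10, 97 were lower at P6 (15.2% and 72.9%) and 116 at P8 (18.2% and 30.1%). At P2 and P4, 100 and 88 of them were lower (15.7% and 70.9%, 13.8% and 65.7%). Depth was also greater for rd1 at P2 and P4 (18305526 to 20707535 counts, against 12258311 to 14130999 for WT). Deposited CPM of Gm42418 at P2 ranged from 277.8 to 285.2 for rd1 and from 13.8 to 45.78 for WT. The P4 ranges were 114.2 to 292.3 (rd1) and 26.55 to 42.22 (WT). At P6 the rd1 range was 92.66 to 172.6. There WT replicate 1 reached 318.8, while WT replicates 2, 3 and 4 lay below every rd1 library (23.6, 19.41 and 11.73). At P8 the ranges overlapped, 4.237 to 14.93 for rd1 and 6.409 to 9.329 for WT. The part of Gm42418 or of depth in the shared calls was not tested.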

How the data were processed

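Bulk RNA sequencing of sorted rods was quantified by the authors with kallisto 0.42.4 on GRCm38.p5, with edgeR 3.32.1 also named, per the submitters' processing notes. The deposited expected (estimated) counts per gene were rounded to whole numbers, and 1 column per table that matched no sample was not used. The deposited CPM equal these counts scaled to the library total, within 5.8e-11. The deposited expected counts per transcript served for Pde6b and for finding near-identical libraries.

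Of 28 libraries, P6 rd1 replicates 1 and 3 were far closer to each other than any other pair within a group (chi-square per degree of freedom 1.71, where sampling noise alone gives about 1, against 6.54 to 156 in the others of 29 pairs). With a limit of 2 they were counted as 1 sample, which left 27 samples in 10 groups of age and genotype. Genes were filtered with filterByExpr, scaled by TMM and fitted in 1 model with edgeR 4.0.16 (quasi-likelihood, 17 residual degrees of freedom), so that 2 rd1 libraries at P10 borrow their spread from all groups. Tests are two-sided, with Benjamini-Hochberg adjustment over all 18608 genes and a threshold of 0.05. Standard errors are the fold change divided by the root of F, an approximation. Printed CPM use the effective library size, except the deposited CPM of Gm42418 and the CPM of Pde6b transcripts, which use library totals. Precision is limited by depths of 11942678 to 21363610 counts at P10, and the floor of 3 counts covers counting error only.

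The fit was also made without P10 WT replicate 5. Alternatives were other scalings, no filter, DESeq2 1.42.0, limma-voom 3.58.1, the 6 P10 libraries alone, covariates, GC-bin offsets, the 28 libraries kept apart and each P10 library left out. Genes named are Pde6b; those with the largest called changes, at a log2 of the mean CPM of at least 1 or of at least 5, whose groups were apart and which also passed without WT replicate 5; up to 4 members per list by p; and the 8 smallest p in each direction for the P10 contrast. Rod markers, unchanged members given for context, and list members beyond the first 4 were chosen after their values were seen. The members and lists were chosen with earlier results of these data known. Promoter windows are from RefSeq. Some genes that the rule names are not reported here.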

Additional observations from a re-analysis of the deposited data

Results flagged for a closer look

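Within the 4 WT libraries at P10, 1 library stood far from the other 3 (a gap to the nearest of the others above Dixon's 95% critical value) for 12 of 166 values tested. Chance alone gives about 1 in 20. WT replicate 5 was the high library for Fos (599 CPM), for the summed immediate early genes (2370 CPM), for Pde6b (4820 CPM), for Atf4 (731 CPM), for Crx (3180 CPM), for Ppp1r15a (44.8 CPM), for Cars (77.8 CPM) and for Acadm (75 CPM). WT replicate 4 was the high library for Ptprn (40.7 CPM), Nrtn (2.42 CPM) and Sirt6 (21.4 CPM), and WT replicate 3 for Fam205c (8.01 CPM). WT replicate 5 had been singled out for its Fos level, and the summed list holds Fos, so these entries restate that observation.

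Genotype effects that differed between P10 and the mean of P2, P4, P6 and P8 are given as the difference on the log2 scale, with edgeR's quasi-likelihood test past the adjusted threshold of 0.05. Among stress and chaperone genes the difference was 1.82 for Eif2ak3, 2.92 for Chac1, 1.4 for Asns, 4.92 for Hspa1b, 4.97 for Hspa1a and 1.83 for Hsph1. Among immediate early genes and others induced with them it was 3.30 for Nr4a1, 5.16 for Npas4 and 3.59 for Csrnp1. It was 4.18 for Ptprn, 3.81 for Lmna, 2.36 for Ctnnal1, 1.98 for Twsg1 and 1.17 for Camk2g. It was 1.84 for Gngt2, 1.09 for Srxn1, 1.1 for Clu, 0.98 for Gabarapl1 and 0.64 for Aars. On the lower side it was −3.14 for Pttg1, −2.76 for Pde6c, −2.71 for Fam19a3, −1.71 for Mmp2, −1.09 for Fzd4 and −0.97 for Per3. In this contrast the calls of Asns, Chac1, Clu, Gabarapl1, Srxn1, Aars, Camk2g, Pde6c, Fam19a3, Fzd4 and Per3 were lost without rd1 replicate 2. Those of Aars, Srxn1, Chac1, Clu, Gngt2, Pde6c, Fzd4 and Per3 were lost without rd1 replicate 1. Aars and Srxn1 also lost theirs without WT replicate 2, Aars, Srxn1, Chac1, Clu, Gabarapl1 and Gngt2 without WT replicate 3, and these 6 and Asns without WT replicate 4.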

How the results depend on the processing

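The number of genes called at P10 depended on the fit. It was 1052 with the 6 P10 libraries alone, 4315 with limma-voom, 201 with the immediate early genes as a covariate and 147 with Gm42418 as a covariate, and ranged from 335 (without rd1 replicate 2) to 2450 (without WT replicate 5) as libraries were left out. Without WT replicate 5 it was 4530 with limma-voom, 661 with the immediate early covariate and 239 with the Gm42418 covariate. The contrast of P10 with the other ages gave 158 genes with no filter on low counts, 239 with DESeq2, 456 with limma-voom, and 21 to 200 as libraries were left out. Pde6b differed by −1.24 in the 6 P10 libraries (adjusted p = 0.0528), by −0.87 with the immediate early covariate (adjusted p = 0.359), by −0.86 with the Gm42418 covariate (adjusted p = 0.436), and by −1.46 to −1.01 as libraries were left out. With the Gm42418 covariate the direction turned for Apoe (−0.16), Gadd45g (−0.58), Rpgrip1 (0.04) and Sox9 (−0.46), with the immediate early covariate for Drd4 (−0.27) and Sox9 (−0.22), and with GC offsets for Bax (−0.11). The cause of these moves was not tested. Of 119 called genes tracked, 70 lost their call to leaving out 1 library, 68 of them without rd1 replicate 2, 35 without rd1 replicate 1, 23 without WT replicate 3, 10 without WT replicate 2, 10 without WT replicate 4 and 8 without WT replicate 5. Beside the reversals above, 87 of the 119 lost their call with the immediate early covariate, 90 with the Gm42418 covariate and 26 with GC offsets, 34 of 118 in the 6 P10 libraries alone, 5 with upper-quartile scaling, 4 with no filter and 1 with DESeq2. DESeq2 size factors, limma-voom, and keeping all 28 libraries apart ended none. No paired analysis was possible because the P10 groups share only replicate number 2. The comparison rests on 2 rd1 libraries, and depth and Gm42418 cannot be told apart from genotype at P10.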

Other observations

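Cytosolic aminoacyl-tRNA synthetases, which charge tRNAs with their amino acids and include known ATF4 targets, formed a list chosen after values were seen. Of 20 tested 7 were higher in rd1 rods and none lower (Aars, Cars, Gars, Iars, Mars, Sars and Tars), with a median log2 fold change of 0.28, and 9 were higher without WT replicate 5. Without rd1 replicate 2, 3 of them passed, and without rd1 replicate 1, 5. With the immediate early covariate 3 passed, and with the Gm42418 covariate 1. Their summed level was 2260 and 2660 CPM in rd1 libraries and 1720 to 2060 CPM in WT libraries.

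Among 15 nuclear histone genes 5 were higher and none lower, against 8.64% higher over all genes. There were 2 higher without rd1 replicate 1 and 3 without rd1 replicate 2, 1 with the immediate early covariate and none with the Gm42418 covariate. H2afx, whose product marks DNA breaks when phosphorylated, stood at 37.5 and 43.2 CPM in rd1 rods and at 16.4, 11.7, 13.7 and 12.9 CPM in WT rods (1.56 ± 0.27; edgeR's quasi-likelihood test, adjusted p = 0.000706). Hist1h1c, a linker histone, stood at 149 and 137 CPM in rd1 rods and at 62.4, 41.4, 53.4 and 62.8 CPM in WT rods (1.38 ± 0.32, adjusted p = 0.00719), and lost its call without rd1 replicate 1 or 2 (adjusted p = 0.0571 and 0.0589). Of 36 progenitor and proliferation genes 3 were higher and 2 lower, against 8.64% and 4.36% over all genes, and none passed with either covariate. None passed without rd1 replicate 1, and 1 was higher without rd1 replicate 2, WT replicate 3, WT replicate 4 or WT replicate 5. The lower pair were Bub1b, a mitotic checkpoint kinase, at 4.98 and 18.5 CPM in rd1 rods and 24.2 to 44.2 CPM in WT rods, and Tyms, thymidylate synthase, at 18.9 and 17 CPM in rd1 rods and 23.5 to 30.1 CPM in WT rods. Bub1b did not pass without rd1 replicate 1 (−0.90, adjusted p = 0.298), nor Tyms without rd1 replicate 1 or 2 or WT replicate 3 or 4.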
